A study of Mus musculus with 8 samples.

Results

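The genes described here are 10 genes of foam cells and Trem2 macrophages, the lipid-laden macrophages of atherosclerotic plaques: Trem2, Tyrobp, Itgax, Cd72, Plin2, Fabp5, Gpnmb, Spp1, Lgals3 and Mmp27. They were taken by gene symbol from the 21859 genes in the files. All 10 had a row, and all 10 were among the 15077 genes that passed the filter on low counts and were tested. Total RNA was sequenced from the whole aortas of 4 ApoE-/- mice and 4 wild-type (WT) mice, 1 library per mouse. All 8 were male C57BL/6 mice, 40 weeks old and kept on a normal chow diet. The ApoE-/- mice lacked apolipoprotein E in every tissue and the WT mice carried no engineered allele. The deletion of Apoe, which encodes a lipoprotein ligand for hepatic clearance of cholesterol-rich particles, makes mice prone to plaques. A whole aorta holds smooth muscle, endothelium, adventitia with its resident macrophages, and attached fat, so a value here is an average over all of them.

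When macrophages in the arterial wall take up more cholesterol than they can export, they store it as cholesteryl ester in lipid droplets and are then called foam cells. TREM2 is a surface receptor for lipids and lipoproteins that has no signalling tail of its own. It signals through the adaptor TYROBP (DAP12), whose phosphorylated cytoplasmic motif recruits the kinase SYK. In plaques, Trem2 marks the lipid-laden macrophages, which also carry the lysosomal glycoprotein GPNMB, the secreted phosphoprotein osteopontin (Spp1), galectin-3 (Lgals3) and the integrin CD11c (Itgax).

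Of the 10 genes, 9 had a higher mean in ApoE-/- than in WT aortas, and Plin2 was the exception. In 7 of them, namely Trem2, Tyrobp, Itgax, Cd72, Gpnmb, Spp1 and Lgals3, the lowest ApoE-/- mouse lay above the highest WT mouse. Over all tested genes, 5.41% separated the genotypes in that direction. Trem2, Itgax and Cd72 passed the edgeR quasi-likelihood test at an adjusted p under 0.05 and rose, where 0.371% of all tested genes were called higher. DESeq2, the tool named in the study's methods, called the 7 genes whose genotypes did not overlap, against 2.84% of the genes it tested. limma-voom called 0 of the 10, with adjusted p of 0.149 for Trem2, 0.128 for Itgax and 0.0811 for Cd72, and 7 of the 10 higher at an unadjusted p under 0.05, against 6.41% of all genes in that fit. The median log2 fold change of the 10 genes was 2.54, a 5.82-fold difference, and the range ran from -0.34 to 4.73. The median of all tested genes was 0.05.

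The RNA behind these values came from 18375898 to 23940156 counted read pairs per library. Each ApoE-/- library had more counted pairs than every WT one. All pairs, counted or not, overlapped, at 67231818 to 72143353 per library in ApoE-/- and 65355678 to 75627250 in WT. The share counted was 32.3% to 35.6% in ApoE-/- and 27.9% to 30.2% in WT. How this share bears on the 10 genes was not tested. Apoe itself, read as a check of the labels, was between 14.7 and 36.3 CPM (read pairs per gene scaled to a common library size) with the ApoE-/- label and between 536 and 857 CPM with the WT label, so all 8 libraries matched their labels. ApoE-/- mouse 1 stood apart from the other ApoE-/- mice: its 12 macrophage markers summed to 534 CPM against 1018 to 2216 CPM in mice 2 to 4, and its 8 smooth muscle markers to 4803 CPM against 12105 to 19605 CPM. Without it, edgeR called 593 genes in place of 70, and 7 of the 10 genes in place of 3, against 2.75% of all genes called higher in that fit. Leaving out any of the other 7 libraries left 0 of the 10 called, with 7 or 8 of them higher at an unadjusted p under 0.05, against 5.45% to 7.66% of all genes. Nothing in the labels states more than that each library came from its own mouse.

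Stretches of promoter sequence are shown for the 5 genes in which 1 of 4 searched motifs was found. The sequences are those of RefSeq on GRCm38.p6, where 8 of the 10 genes had an entry (Tyrobp and Fabp5 had none), each covering 250 bases before to 50 bases after the start site. The motifs searched on both strands were AGAGGAAG (PU.1, the factor of myeloid identity), TGANTCA (AP-1), CACGTG (the E-box, bound by basic helix-loop-helix factors) and TCATGTG (the M-box, bound by MITF and TFEB). None of these strings contains another. Each line runs from 75 bases before the start site to the 25th base of the transcript, 5′ to 3′ on the strand of the gene, with the motif in capitals.
Trem2, chr17:48346326-48346425, plus strand: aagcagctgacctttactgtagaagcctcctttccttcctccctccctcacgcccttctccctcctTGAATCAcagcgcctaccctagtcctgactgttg
Itgax, chr7:128129475-128129574, plus strand: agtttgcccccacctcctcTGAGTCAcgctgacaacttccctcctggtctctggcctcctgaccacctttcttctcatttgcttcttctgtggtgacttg
Gpnmb, chr6:49036443-49036542, plus strand: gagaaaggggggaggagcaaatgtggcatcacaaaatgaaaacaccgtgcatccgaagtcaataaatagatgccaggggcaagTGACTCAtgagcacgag
Cd72, chr4:43454602-43454701, minus strand: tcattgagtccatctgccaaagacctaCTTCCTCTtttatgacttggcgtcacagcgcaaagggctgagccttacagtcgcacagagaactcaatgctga
Plin2, chr4:86670035-86670134, minus strand: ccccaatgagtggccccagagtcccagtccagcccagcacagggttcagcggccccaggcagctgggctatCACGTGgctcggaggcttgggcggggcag
The AP-1 string lay at bases -9 to -3 of Trem2, -56 to -50 of Itgax and 9 to 15 of Gpnmb, counted from the start site. It was present in 7.81% of the 32851 promoters of the same length. The PU.1 string lay on the opposite strand of Cd72 at -48 to -41 (4.55% of all promoters), and the E-box at -4 to 2 of Plin2 (7.15%). No M-box was found in the 8 genes (3.77% of all promoters), and Spp1, Lgals3 and Mmp27 held none of the 4 strings in these windows. These are matches of letters and say nothing of binding.

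**Figure D1:**
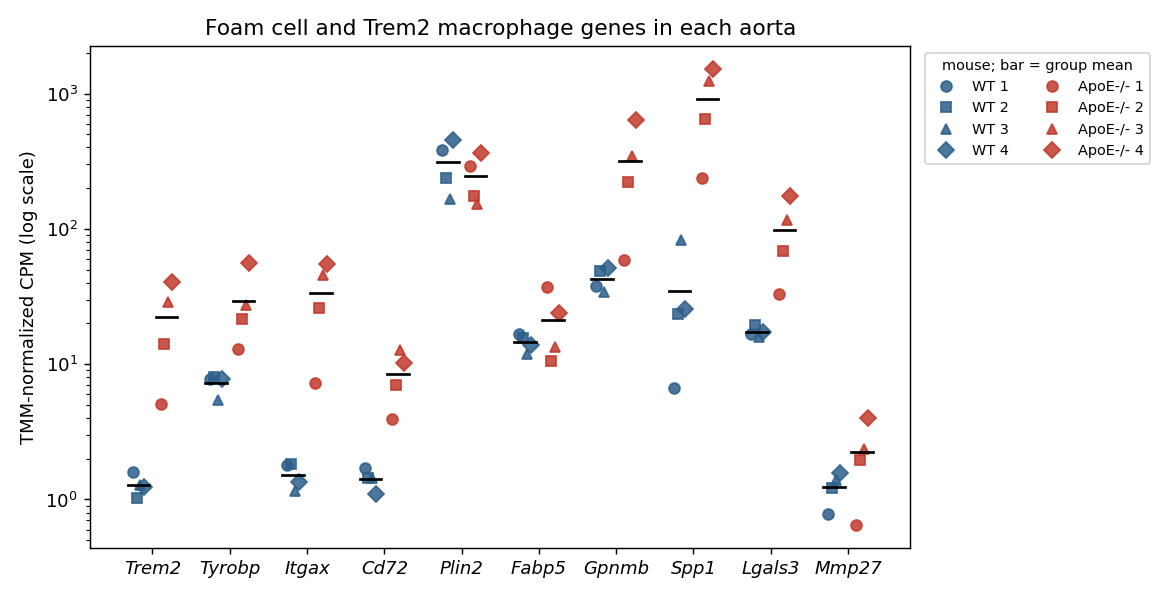
The 10 genes in each of the 8 aortas, in CPM normalized with TMM factors on a log axis; blue symbols are WT mice, red symbols ApoE-/- mice, the symbol shape gives the mouse number and the black bar the mean of 4 mice. All red symbols lie above all blue ones for Trem2, Tyrobp, Itgax, Cd72, Gpnmb, Spp1 and Lgals3, and red and blue overlap for Plin2, Fabp5 and Mmp27.

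The receptor Trem2 (ENSMUSG00000023992.14, GRCm38 chromosome 17, 48346401 to 48354147, plus strand) was measured at 5.07, 13.99, 28.9 and 40.8 CPM in ApoE-/- mice 1 to 4. In WT mice 1 to 4 it was at 1.61, 1.03, 1.27 and 1.24 CPM, from 22 to 35 read pairs per library. The WT mice lay close together and the ApoE-/- mice covered an 8.03-fold range, with no overlap between genotypes. The means were 22.2 ± 15.8 CPM (SD, n = 4) in ApoE-/- and 1.29 ± 0.238 CPM (SD, n = 4) in WT. Trem2 rose, with a log2 fold change of 4.10 ± 0.62 (SE) and an adjusted p of 0.0434 in edgeR and 2.33e-10 in DESeq2. Its log2 fold change ranked 13 of the 15077 tested. Leaving out 1 library at a time, its log2 fold change ran from 3.63 to 4.43, and the edgeR adjusted p from 0.00392 (without ApoE-/- mouse 1) to 0.177 (without WT mouse 4). Only the fit without ApoE-/- mouse 1 kept it under 0.05.

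The adaptor Tyrobp (ENSMUSG00000030579.10, chromosome 7, 30413760 to 30417585, plus strand) was at 12.9, 21.6, 27.4 and 56.3 CPM in ApoE-/- mice 1 to 4. The WT mice were at 7.71, 8.05, 5.43 and 7.71 CPM, all below the lowest ApoE-/- mouse. Its means were 29.6 ± 18.8 and 7.22 ± 1.21 CPM (SD, n = 4 each), with a log2 fold change of 2.03 (SE 0.42). The edgeR adjusted p was 0.0796 and that of DESeq2 1.92e-04. Without 1 library at a time its log2 fold change ran from 1.51 to 2.28, and the edgeR adjusted p from 0.0126 (without ApoE-/- mouse 1) to 0.248. The 2 differed by unequal amounts. Per Tyrobp count, Trem2 had 0.394, 0.649, 1.05 and 0.723 counts in ApoE-/- mice 1 to 4 and 0.208, 0.128, 0.235 and 0.161 in WT mice 1 to 4. The ratio was chosen after the values were seen and is given without a test. It did not overlap between genotypes, at 0.705 ± 0.272 in ApoE-/- and 0.183 ± 0.0477 in WT (SD, n = 4 each).

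The other genes of the TREM receptor and TYROBP pathway were taken from lists. For this and every later list, the background at an unadjusted p under 0.05 in edgeR was 7.19% of all tested genes higher and 4.17% lower. Of 5 other TREM-family receptors plus Hcst, the second adaptor (DAP10), 3 of 6 passed the low-count filter. All 3 had higher means in ApoE-/- aortas, edgeR called 0 and DESeq2 2 (Trem1 and Treml2), and all 3 had an unadjusted p under 0.05. Trem1 had 3 counts or fewer in 3 of the 4 WT libraries and passed the filter through the ApoE-/- mice. Treml2, the most abundant, was at 2.12 ± 0.795 CPM in ApoE-/- and 0.795 ± 0.174 CPM in WT (SD, n = 4 each), edgeR adjusted p = 0.109. Of 12 genes that signal downstream of TYROBP or shed TREM2 from the surface, all 12 had a log2 fold change over 0, with a median of 0.88. edgeR called 1 and DESeq2 6. The called gene was Vav1, a signalling protein of blood cells, which rose from 3.78 ± 0.775 to 14.5 ± 5.59 CPM (SD, n = 4 each), a log2 fold change of 1.94 ± 0.30 (SE) at an adjusted p of 0.0462 in edgeR. The kinase Syk was at 46.9 ± 16.1 CPM against 22.5 ± 1.81 CPM (SD, n = 4 each; edgeR adjusted p = 0.103, DESeq2 adjusted p = 0.00498). The sheddases Adam10 and Adam17 had log2 fold changes of 0.19 and 0.20, with overlapping genotypes. Syk, Adam10 and Adam17 were picked from the list after its values were seen.

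Itgax (ENSMUSG00000030789.9, chromosome 7, 128129547 to 128150657, plus strand) encodes CD11c, the alpha X chain that pairs with the beta2 integrin chain Itgb2 and binds complement fragments and adhesion molecules. It was at 7.31, 26.2, 45.4 and 55.0 CPM in ApoE-/- mice 1 to 4 and at 1.79, 1.83, 1.16 and 1.34 CPM in WT mice 1 to 4. Every ApoE-/- mouse was above every WT mouse, and mouse 1 was again the lowest of its group. Itgax rose, with a log2 fold change of 4.44 ± 0.61 (SE) and an adjusted p of 0.0380 in edgeR and 3.90e-13 in DESeq2, from a mean of 1.53 ± 0.329 to 33.5 ± 21.2 CPM (SD, n = 4 each). Among the 10 genes it had the smallest edgeR p, and this adjusted p without 1 library ran from 0.00136 to 0.169. Of 4 listed beta2 integrin partners, 3 were tested, all 3 were higher without overlap, edgeR called 0 (3 at an unadjusted p under 0.05) and DESeq2 3. Itgb2 was at 37.2 ± 21.2 CPM against 9.46 ± 1.72 CPM and the alpha M chain Itgam at 6.50 ± 2.30 CPM against 2.17 ± 0.495 CPM (SD, n = 4 each), with edgeR adjusted p = 0.0709 and 0.0645.

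Set against the chain it pairs with, Itgax stood at 0.431, 0.958, 1.19 and 0.830 counts per Itgb2 count in ApoE-/- mice 1 to 4 and at 0.153, 0.186, 0.150 and 0.156 in the WT mice. The WT values were nearly constant and all ApoE-/- values were higher. Itgam per Itgb2 count overlapped between genotypes, at 0.194 ± 0.0514 in ApoE-/- and 0.230 ± 0.0376 in WT (SD, n = 4 each). Both ratios were chosen after the values were seen and were not tested. Dendritic cells also carry CD11c. Of their 8 listed markers, 6 had a log2 fold change over 0, with a median of 0.82, and edgeR called 0 (7 at an unadjusted p under 0.05). Flt3, Cd209a, Ccr7, Cd83 and Clec10a had positive values from 0.72 to 1.31 and Zbtb46 and Clec9a negative ones, each at an unadjusted p under 0.05. Zbtb46, the most abundant, was at 50.3 ± 6.44 CPM in ApoE-/- and 67.1 ± 6.05 CPM in WT (SD, n = 4 each) and made up much of the summed level of 80.9 to 108 against 92.7 to 106 CPM. DESeq2 called Clec9a lower (adjusted p = 0.0474). The part of dendritic cells in the Itgax value was not tested.

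Cd72 (ENSMUSG00000028459.11, chromosome 4, 43446462 to 43454628, minus strand) encodes an inhibitory C-type lectin best known as a coreceptor on B cells. Its values were 3.94, 6.997, 12.8 and 10.3 CPM in ApoE-/- mice 1 to 4 and 1.70, 1.45, 1.44 and 1.101 CPM in WT mice 1 to 4. The genotypes did not overlap, and mouse 3 rather than mouse 4 was the highest, unlike in Trem2, Tyrobp and Itgax. Cd72 rose, with a log2 fold change of 2.57 ± 0.37 (SE) and an adjusted p of 0.0396 in edgeR and 5.39e-08 in DESeq2, from 1.42 ± 0.245 to 8.50 ± 3.85 CPM (SD, n = 4 each). Its adjusted p without 1 library ran from 0.00508 to 0.169. Of 9 B cell markers, 7 had a log2 fold change over 0, none was at 3 counts or fewer in all libraries, edgeR called 0 (5 at an unadjusted p under 0.05) and DESeq2 2 (Blk and Cd22). They summed to 28.0, 19.0, 36.7 and 22.2 CPM in ApoE-/- mice 1 to 4 and to 10.97 to 15.1 CPM in WT. The sums did not overlap between genotypes. Among the ApoE-/- mice, mouse 3 was the highest in both the sum and Cd72, while mouse 1 was the lowest in Cd72 and mouse 2 in the sum. The part of B cells in the Cd72 value was not tested. Its exons share 1423 of 3422 bases with Tesk1 on the opposite strand. The libraries were stranded, and the share of antisense read-through was not tested. The listed CD72 ligands Sema4d and Cd5 were higher in mean with overlapping genotypes and were not called by either tool.

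Plin2 and Fabp5 handle intracellular lipid. Perilipin 2 coats the surface of lipid droplets, and its protein is a common histological marker of foam cells. Plin2 (ENSMUSG00000028494.12, chromosome 4, 86648386 to 86670060, minus strand) was at 291, 176, 152 and 364 CPM in ApoE-/- mice 1 to 4 and at 384, 238, 165 and 454 CPM in WT mice 1 to 4. The ranges overlapped throughout, and the mean was lower in ApoE-/- (246 ± 99.6 CPM) than in WT (310 ± 132 CPM; SD, n = 4 each). The log2 fold change was -0.34 with an SE of 0.39 (adjusted p = 0.83 in edgeR). It was negative in all 16 alternative fits, from -0.59 to -0.09. Plin2 mRNA is also made by fat cells. The 7 adipocyte markers, none of them at 3 counts or fewer in all libraries, summed to 7069, 3901, 2715 and 11363 CPM in ApoE-/- mice 1 to 4 and to 8680, 5814, 6067 and 11572 CPM in WT mice 1 to 4. In the ApoE-/- mice Plin2 and these markers had the same order, with mouse 4 highest and mouse 3 lowest. In the WT mice mouse 4 and then mouse 1 were highest in both, but mouse 3 was lowest in Plin2 and mouse 2 in the markers. Per 100 adipocyte marker counts Plin2 was at 4.36 ± 0.991 in ApoE-/- and 3.79 ± 0.742 in WT (SD, n = 4 each), a ratio chosen after the values were seen, with overlapping genotypes. The part of attached fat in the Plin2 value was not tested.

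The fatty acid-binding protein Fabp5 (ENSMUSG00000027533.10, chromosome 3, 10012548 to 10016607, plus strand) was at 37.0, 10.6, 13.5 and 23.8 CPM in ApoE-/- mice 1 to 4 and at 16.8, 15.7, 11.97 and 13.8 CPM in WT mice 1 to 4. ApoE-/- mouse 1, the lowest of its group in the 7 genes that separated the genotypes, was the highest here, and mice 2 and 3 lay among the WT mice or below them. The log2 fold change was 0.54 ± 0.37 (SE), at an adjusted p of 0.708 in edgeR, and without 1 library at a time it ran from 0.13 (without ApoE-/- mouse 1) to 0.76 (without ApoE-/- mouse 2). Of 4 other perilipins, 1 had a log2 fold change over 0 and edgeR and DESeq2 called 0 (0 at an unadjusted p under 0.05 in edgeR). Of 9 other fatty acid-binding proteins, 3 were tested and again 0 were called by either tool (0 at an unadjusted p under 0.05 in edgeR). Plin4 (1326 ± 114 against 1550.5 ± 288 CPM) and Fabp4 (2251 ± 1233 against 3137 ± 624 CPM; SD, n = 4 each) were the most abundant, and Fabp4 is also among the adipocyte markers.

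**Figure D2:**
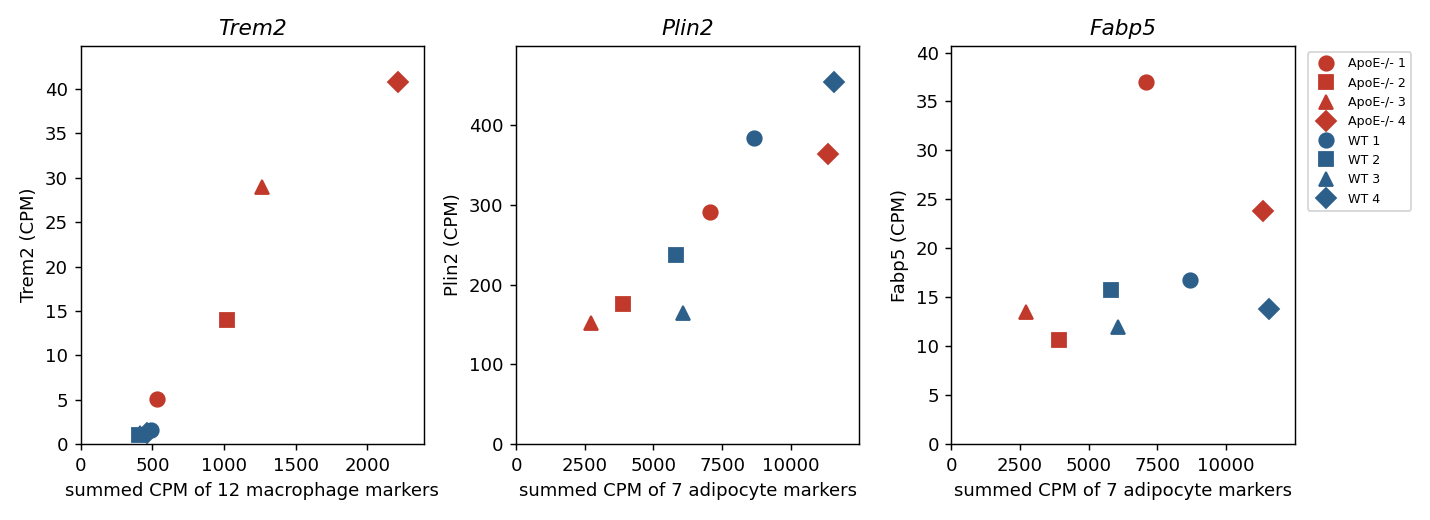
Each point is 1 aorta, with the CPM of Trem2, Plin2 or Fabp5 on the vertical axis against the summed CPM of 12 macrophage or 7 adipocyte markers on the horizontal axis; red is ApoE-/-, blue is WT and the shape gives the mouse number. Trem2 climbs with the macrophage markers among the ApoE-/- mice from 5.07 to 40.8 CPM while the WT mice sit together near 1.29 CPM; Plin2 of both genotypes lies along 1 band against the adipocyte markers; Fabp5 is highest in ApoE-/- mouse 1.

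Gpnmb, Spp1 and Lgals3 encode the glycoproteins and lectin of the foam cell. Gpnmb (ENSMUSG00000029816.10, chromosome 6, 49036546 to 49070929, plus strand), a transmembrane glycoprotein of lysosomes and melanosomes, was at 59.3, 224, 347 and 635 CPM in ApoE-/- mice 1 to 4. The WT mice were at 37.7, 48.4, 34.0 and 51.5 CPM, so that ApoE-/- mouse 1 lay just above the highest WT mouse and the others well above it. The means were 316 ± 243 and 42.9 ± 8.39 CPM (SD, n = 4 each) and the log2 fold change 2.88 ± 0.62 (SE), at an adjusted p of 0.0899 in edgeR and 3.63e-05 in DESeq2. Gpnmb had the widest ApoE-/- range of the 10 genes, 10.7-fold from the lowest to the highest mouse. Without 1 library at a time, the log2 fold change of Gpnmb ran from 2.29 (without ApoE-/- mouse 4, adjusted p = 0.140 in edgeR) to 3.23 (without ApoE-/- mouse 1, adjusted p = 0.00636), and the other 6 fits gave an adjusted p of 0.119 to 0.273.

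Spp1 (ENSMUSG00000029304.14, chromosome 5, 104435118 to 104441050, plus strand) encodes osteopontin, a secreted ligand of integrins and CD44. It was at 239, 652, 1232 and 1526 CPM in ApoE-/- mice 1 to 4 and at 6.65, 23.3, 82.3 and 25.7 CPM in WT mice 1 to 4. Its WT mice spanned a 12.4-fold range and its ApoE-/- mice a 6.39-fold range, and the genotypes still did not overlap. The log2 fold change was the largest of the 10, 4.73 ± 0.91 (SE), at an adjusted p of 0.0660 in edgeR and 1.32e-08 in DESeq2, on means of 912 ± 578 and 34.5 ± 33.0 CPM (SD, n = 4 each). Without 1 library at a time it ran from 4.36 (without ApoE-/- mouse 4) to 5.62 (without WT mouse 3, the highest WT mouse, adjusted p = 0.160 in edgeR), and it passed in edgeR without ApoE-/- mouse 1 alone (adjusted p = 0.0170). Its exons share 309 of 1648 bases with Gm42793 on the same strand. Pairs that could belong to more than 1 gene were kept apart as ambiguous in the files (0.850% to 1.32% of all pairs), and how many fell in this stretch was not tested. Of 6 listed genes, related glycoproteins and the receptor Cd44, 4 had enough counts and all 4 a log2 fold change over 0. edgeR called 0 (2 at an unadjusted p under 0.05) and DESeq2 2 (Cd44 and Ibsp). Cd44 was at 129 ± 50.8 against 46.6 ± 1.5002 CPM (SD, n = 4 each; edgeR adjusted p = 0.0526).

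Lgals3 (ENSMUSG00000050335.17, chromosome 14, 47367751 to 47386160, plus strand) encodes galectin-3, a beta-galactoside-binding lectin abundant in activated macrophages. It was at 32.9, 68.4, 117 and 176 CPM in ApoE-/- mice 1 to 4 and at 16.7, 19.4, 15.9 and 17.3 CPM in WT mice 1 to 4. The WT mice had the smallest spread of the 10 genes, with an SD of 8.74% of the mean. The log2 fold change was 2.51 ± 0.46 (SE), at an adjusted p of 0.0629 in edgeR and 3.95e-06 in DESeq2, with means of 98.7 ± 62.2 against 17.3 ± 1.51 CPM (SD, n = 4 each). Without 1 library at a time it ran from 2.07 to 2.80, and the edgeR adjusted p from 0.00621 (without ApoE-/- mouse 1) to 0.212. Among the other galectins, 6 of 7 were tested and 3 of the 6 had a log2 fold change over 0, with a median of -0.22. edgeR called 0 (2 at an unadjusted p under 0.05) and DESeq2 1, Lgals4, which was lower. Lgals1, the most abundant, was at 338 ± 82.1 against 321 ± 28.2 CPM (SD, n = 4 each), edgeR adjusted p = 0.937.

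Mmp27 (ENSMUSG00000070323.11, chromosome 9, 7571396 to 7581885, plus strand), a matrix metalloproteinase, was the least abundant, with 16 to 92 read pairs per library. Its values were 0.649, 1.97, 2.35 and 3.99 CPM in ApoE-/- mice 1 to 4 and 0.780, 1.22, 1.39 and 1.58 CPM in WT mice 1 to 4. ApoE-/- mouse 1 was below all WT mice and the other ApoE-/- mice above all of them. The log2 fold change was 0.85 ± 0.50 (SE), at an adjusted p of 0.628 in edgeR, and without 1 library at a time it ran from 0.42 (without ApoE-/- mouse 4, adjusted p = 0.723 in edgeR) to 1.16 (without ApoE-/- mouse 1, adjusted p = 0.109). Of 9 other metalloproteinase genes of the same chromosome 9 cluster, 8 had a row and 3 enough counts, and all 3 were higher without overlap. edgeR called 2. DESeq2 called these, Mmp3 and Mmp8, the last of which did not pass the edgeR filter (0.770 ± 0.686 against 0.0745 ± 0.0327 CPM, SD, n = 4 each). Mmp8 had 3 counts or fewer in all 4 WT libraries. Mmp12, the macrophage elastase, rose from 1.31 ± 0.553 to 74.4 ± 54.6 CPM (SD, n = 4 each, edgeR adjusted p = 0.0396). Mmp13, a collagenase, was at 0.0961 ± 0.0851 CPM in WT and 9.37 ± 9.62 CPM in ApoE-/- (SD, n = 4 each, edgeR adjusted p = 0.0438). Mmp13 had 3 counts or fewer in 3 of the WT libraries and passed the filter through the ApoE-/- mice, which limits its call.

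Compared per length, in CPM per kilobase of the principal transcript, the order of the 10 genes changed with genotype. In WT aortas the level of Plin2 was 164 ± 70.0, above Spp1 at 22.9 ± 21.9. Fabp5 (14.8 ± 2.16), Tyrobp (12.8 ± 2.14), Lgals3 (12.2 ± 1.07) and Gpnmb (11.6 ± 2.27) followed, and neighbours in this run lay within 1 SD of each other. Trem2 (1.18 ± 0.219), Cd72 (1.00 ± 0.173), Mmp27 (0.746 ± 0.205) and Itgax (0.378 ± 0.0814) were the lowest. In ApoE-/- aortas Spp1 led at 605 ± 383, followed by Plin2 at 130 ± 52.7, Gpnmb at 85.5 ± 65.7, Lgals3 at 69.5 ± 43.8 and Tyrobp at 52.4 ± 33.4. Fabp5 (21.5 ± 12.1), Trem2 (20.4 ± 14.5), Itgax (8.27 ± 5.23), Cd72 (5.99 ± 2.71) and Mmp27 (1.35 ± 0.8286) came last (SD, n = 4 throughout). From Plin2 down to Cd72, neighbours in the ApoE-/- order differed by less than the larger SD of the pair, whereas the steps from Spp1 to Plin2 and from Cd72 to Mmp27 were larger than it. The order depended on the length used. Over all annotated exons, Trem2 was at 0.261 in WT and 4.49 in ApoE-/-, below Itgax at 0.319 and 6.97, and WT Fabp5 was at 4.08, below Gpnmb at 6.59.

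Of the macrophage markers, all 12 listed had a log2 fold change over 0, with a median of 1.60, and none was at 3 counts or fewer in all libraries. edgeR called 1 (Fcgr1, 6.87 ± 2.27 against 1.37 ± 0.247 CPM; SD, n = 4 each; adjusted p = 0.0355) and DESeq2 9. Their sum was 534, 1018, 1262 and 2216 CPM in ApoE-/- mice 1 to 4 and 409 to 488 CPM in WT. The summed level of the 8 markers of resident adventitial macrophages overlapped, at 475 to 1300 CPM against 587 to 620 CPM. Of the 8, 7 had a log2 fold change over 0, with a median of 0.41, and edgeR called 0 (2 at an unadjusted p under 0.05) and DESeq2 0. Gas6, the most abundant, was at 383 ± 111 against 256 ± 26.9 CPM (SD, n = 4 each). In bulk aorta, more macrophages and more of a transcript per macrophage cannot be told apart. The counts of the 10 genes were therefore also set against the counts of the 12 markers in the same library. The make-up of that sum differed between genotypes. Its most abundant marker in ApoE-/- was Lyz2, at 509 ± 358 CPM against 98.2 ± 20.2 CPM in WT. In WT it was Mertk, at 133 ± 23.9 CPM against 153 ± 62.0 CPM in ApoE-/- (SD, n = 4 each).

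Per 100 macrophage marker counts, 7 of the 10 genes were still higher in mean in ApoE-/- aortas, and 6 did not overlap: Trem2, Tyrobp, Itgax, Cd72, Spp1 and Lgals3. Over all tested genes, 0.471% separated in that direction on this scale. Trem2 was at 0.951, 1.37, 2.29 and 1.84 in ApoE-/- mice 1 to 4 and at 0.329, 0.252, 0.309 and 0.268 in WT mice 1 to 4. Itgax was at 1.37, 2.57, 3.60 and 2.48 against 0.366, 0.447, 0.282 and 0.288. Spp1 was at 44.7, 64.1, 97.7 and 68.9 against 1.36, 5.70, 19.98 and 5.52. In these 3 genes ApoE-/- mouse 3 rather than mouse 4 was the highest, and mouse 1 remained the lowest ApoE-/- mouse but was above every WT mouse.

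Tyrobp, by contrast, was nearly level among the ApoE-/- mice on this scale, at 2.41, 2.12, 2.18 and 2.54, against 1.58, 1.97, 1.32 and 1.66 in WT. Cd72 was at 0.738, 0.687, 1.012 and 0.464 against 0.348, 0.355, 0.350 and 0.237, and Lgals3 at 6.17, 6.72, 9.28 and 7.95 against 3.41, 4.75, 3.86 and 3.73. Gpnmb was at 11.1, 22.0, 27.5 and 28.7 against 7.71, 11.9, 8.26 and 11.1. Its ApoE-/- mouse 1 thus fell inside the WT range. Plin2, Fabp5 and Mmp27 had lower means in ApoE-/- than in WT: 25.1 ± 19.8 against 68.6 ± 24.96, 2.53 ± 2.93 against 3.29 ± 0.442, and 0.170 ± 0.0329 against 0.283 ± 0.0846 (SD, n = 4 each), all with overlap.

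An edgeR fit with the marker sum in place of the library size called Trem2 (log2 fold change 2.48, SE 0.60, adjusted p = 0.00733), Itgax (2.85, SE 0.58, adjusted p = 4.59e-04) and Spp1 (3.08, SE 0.53, adjusted p = 6.01e-06), against 0.113% of all genes called higher. The Spp1 call was lost with either other reference, at a log2 fold change of 4.11 ± 0.78 (SE) and an adjusted p of 0.106 with the 8 resident markers, and 3.61 ± 0.94 (SE) and 0.139 with Csf1r alone. Gpnmb and Lgals3 were called with both, where 0.352% and 0.292% of all genes were called higher. All genes share the noise of 1 denominator in this fit, its median log2 fold change was -1.11, and 8963 of the 15077 genes had an unadjusted p under 0.05, so its p-values are less reliable than the values per mouse. The Trem2 call was kept without ApoE-/- mouse 1 or 2 and lost in the other 6 leave-out fits, at adjusted p of 0.0653 to 0.105. Those of Itgax and Spp1 were lost without ApoE-/- mouse 4 alone (0.0601 and 0.0653). Without ApoE-/- mouse 4 the fit called 0 of the 10. At an unadjusted p under 0.05, 6 were then higher and 1 lower, against 0.524% and 48.5% of all genes. Without ApoE-/- mouse 1 the fit called 8, 6 of them higher and 2 lower, with 65 of all genes called higher and 14193 lower. With all libraries it called 564 of all genes lower and 17 higher, so a lower value on this scale is shared with most genes and is no result about Plin2, Fabp5 or Mmp27.

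**Figure D3:**
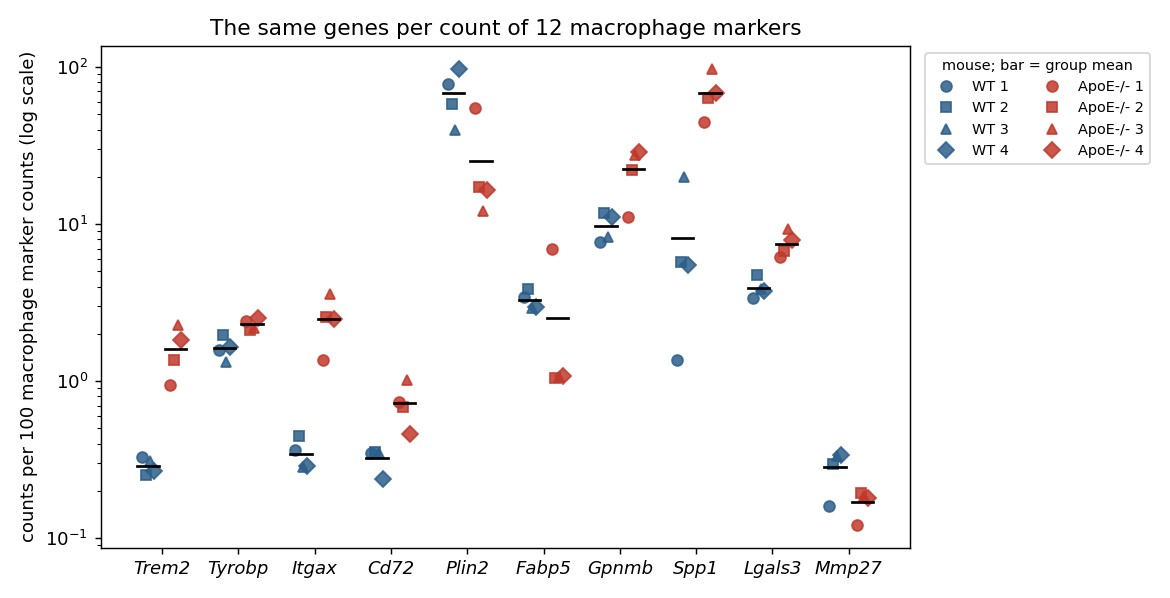
Counts of each gene per 100 counts of the 12 macrophage markers in the same library, on a log axis; blue symbols are WT mice, red symbols ApoE-/- mice, shapes give the mouse number and black bars the mean of 4 mice. Trem2, Tyrobp, Itgax, Cd72, Spp1 and Lgals3 stay separated, Gpnmb overlaps through ApoE-/- mouse 1, and the means of Plin2, Fabp5 and Mmp27 are lower in ApoE-/-.

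**Figure D4:**
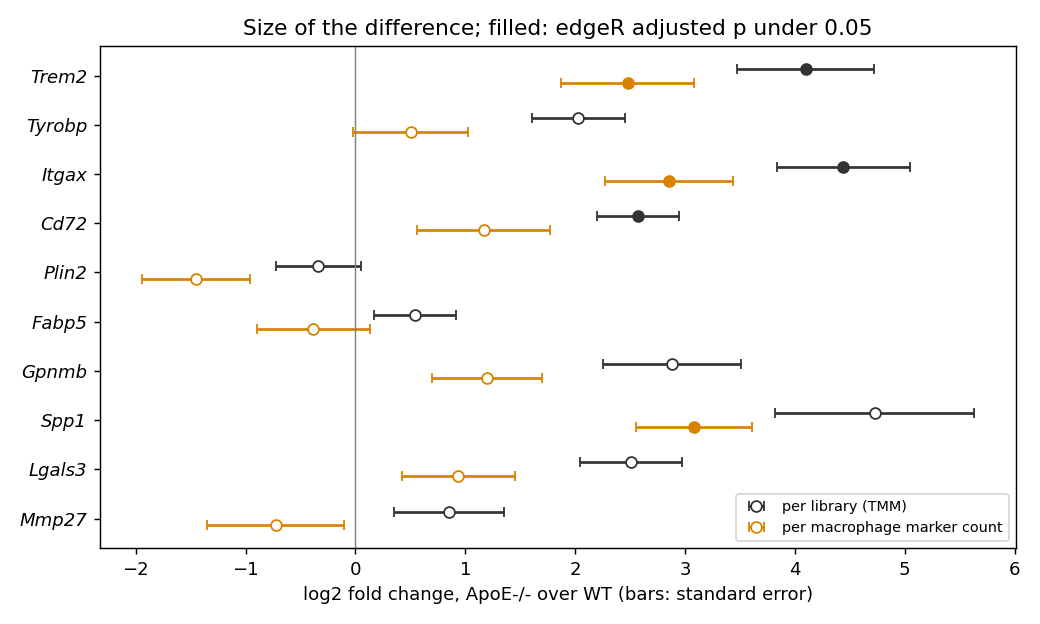
Log2 fold change of ApoE-/- over WT with its standard error from the edgeR fit per library (black) and from the fit per macrophage marker count (orange); filled points have an adjusted p under 0.05. The orange points lie below the black ones for all 10 genes, and Trem2, Itgax and Spp1 remain the furthest to the right, at 2.48, 2.85 and 3.08.

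The profiles over the 8 libraries were compared as centred log2 CPM, with the root-mean-square distance as the measure of likeness. Among the 10 genes the nearest pairs were Tyrobp and Lgals3 (0.31), Gpnmb and Lgals3 (0.32), and Trem2 and Itgax (0.33), and the farthest was Spp1 and Plin2 (3.02). Of all other tested genes, the 5 nearest to Trem2 were Fcgr4 (0.50), Ctss (0.50), Mpeg1 (0.52), Clec4d (0.53) and Crabp2 (0.54). The 5 nearest to Gpnmb were Lyz2 (0.35), Adam8 (0.38), Il7r (0.38), Ms4a6d (0.38) and Cd84 (0.42). All pairs share the same libraries and the same genotype difference, so the distances are descriptions. Lyz2 is also 1 of the 12 macrophage markers.

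A list of 30 other genes of lipid-associated macrophages, covering lysosomal cathepsins, cholesterol handling and scavenger receptors, had 29 rows, all tested. Of these, 27 had a log2 fold change over 0, with a median of 0.82, against 58.0% of all tested genes over 0 and a median of 0.05. edgeR called 1 and DESeq2 12, and 13 did not overlap. The gene called by edgeR was Mmp12, given above. The 2 with a negative log2 fold change, picked out after the values were seen, were Cd36 (-0.69) and Lpl (-0.52), a fatty acid translocase and the lipoprotein lipase, both also made by adipocytes and both with overlapping genotypes. The summed level of the list overlapped, at 7876 to 14392 CPM in ApoE-/- and 7601 to 11613 CPM in WT. Counts and sums of further marker lists are given beside these. Of 9 cardiac muscle markers, 0 had a log2 fold change over 0, edgeR called 0 (7 at an unadjusted p under 0.05) and DESeq2 5 lower, and they summed to 164 to 363 CPM in ApoE-/- against 426 to 731 CPM in WT. Of 8 endothelial markers, 1 had a log2 fold change over 0, edgeR called 0 (4 at an unadjusted p under 0.05) and DESeq2 3 lower (Cdh5, Kdr and Emcn, the same 3 that did not overlap). Their sums overlapped, at 1596 to 2495 CPM in ApoE-/- and 2260 to 2822 CPM in WT. Of 7 neutrophil markers, 2 passed the filter, and edgeR called Csf3r, the receptor for granulocyte colony-stimulating factor (6.59 ± 1.54 against 1.67 ± 0.413 CPM, SD, n = 4 each, adjusted p = 0.0379 in edgeR). DESeq2 called Csf3r, S100a9 and S100a8. The 7 summed to 7.65 to 16.3 against 2.35 to 3.30 CPM, with Ly6g at 3 counts or fewer in all libraries. Their part in the values of the 10 genes was not tested.

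**Figure D5:**
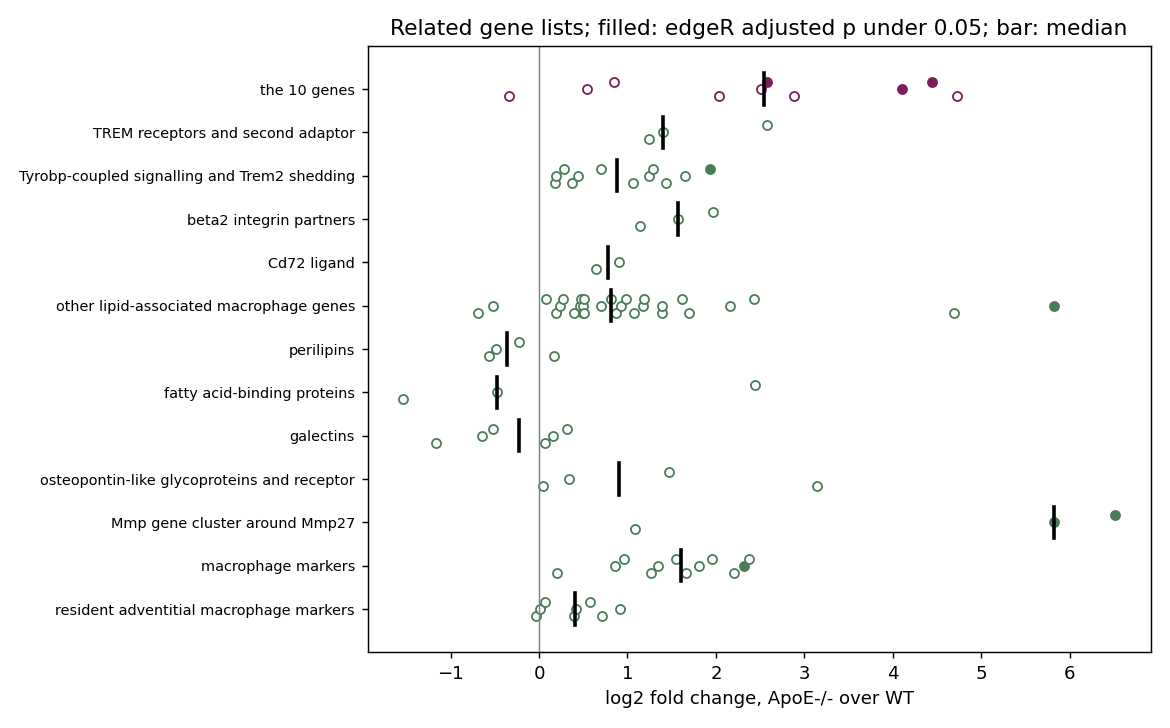
Log2 fold change of ApoE-/- over WT for each tested gene of the 10 genes (purple) and of the related lists (green); filled points have an edgeR adjusted p under 0.05 and the black bar is the median of the list. The median of the 10 genes is 2.54, that of the macrophage markers 1.60, that of the other lipid-associated genes 0.82, and those of perilipins, fatty acid-binding proteins and galectins lie below 0.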

How the data were processed

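Libraries of stranded total RNA depleted of ribosomal RNA were made from 1 aorta per mouse. The deposited values are raw counts of read pairs per gene, without normalization or pooling. The submitters' processing notes name TopHat2, HTSeq and the build GRCm38 (mm10); versions and annotation are not given in the sources used here. Rows that name no gene were left out: pairs without a gene made up 50.1% to 54.7% of all pairs in ApoE-/- and 56.4% to 58.0% in WT. Coordinates are from GENCODE M21 (GRCm38).

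Counts were analysed in R 4.3.3. edgeR 4.0.16 filtered them (filterByExpr, minimum count 10), normalized them (TMM) and compared genotypes with the robust quasi-likelihood F test, two-sided, with Benjamini-Hochberg adjustment over 15077 genes and a threshold of 0.05. The SE is the log2 fold change divided by the square root of F. Log2 CPM used a prior count of 2. DESeq2 1.42.0, limma-voom (limma 3.58.1), other filters and scalings, a block for the replicate number, and fits without each library in turn were alternatives. The pipeline was tested on simulated counts. Figures were drawn with Python 3.11.15 and matplotlib.

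The 10 genes, the lists and the marker genes were chosen with earlier results of these data known. Named were all 10 genes, from each list the genes past the threshold or, where none or all passed, the 1 or 2 most abundant, and the 5 genes nearest to Trem2 and to Gpnmb. For the smooth muscle, cardiac and endothelial markers the most abundant were not named. List genes called by DESeq2 alone, the dendritic cell markers other than Zbtb46, and the macrophage markers Lyz2 and Mertk were named after their values were seen. Replicates are different mice, and each test set the genotype difference against a spread between mice that edgeR partly draws from other genes. In the fit per macrophage marker count the median weight of the other genes (prior degrees of freedom) was infinite. For most genes that fit thus used the spread shared over genes and not the gene's own. Symbols shared by several rows (24) involved none of the 10 genes.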

Additional observations from a re-analysis of the deposited data

Results flagged for a closer look

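In each group of 4 mice, the gap of the highest or lowest value to its neighbour was divided by the range and set against Dixon's 95% critical value. Of 90 groups of values examined, 7 exceeded it, where chance alone gives 4.5. Among the 10 genes, Tyrobp in WT mouse 3 was at 5.43 CPM against 7.71 to 8.05 CPM in the other WT mice (ratio 0.869). Per 100 macrophage marker counts, Fabp5 in ApoE-/- mouse 1 was at 6.93 against 1.04 to 1.07 in mice 2 to 4 (ratio 0.995) and Plin2 in the same mouse at 54.6 against 12.05 to 17.3 (ratio 0.877), while Cd72 in WT mouse 4 was at 0.237 against 0.348 to 0.355 (ratio 0.938). Among the lists, the other lipid-associated macrophage genes summed to 14392 CPM in ApoE-/- mouse 4 against 7876 to 8968 CPM (ratio 0.832), the dendritic cell markers to 106 CPM in WT mouse 4 against 92.7 to 94.5 CPM (ratio 0.863), and the cardiac muscle markers to 164 CPM in ApoE-/- mouse 4 against 344 to 363 CPM (ratio 0.901).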

How the results depend on the processing

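Over all genes, edgeR called 70, DESeq2 721, limma-voom 27 and edgeR with the replicate number as a block 2 (1723 at an unadjusted p under 0.05); leaving out 1 library gave 0 to 593. Of the 10 genes, edgeR called 3, DESeq2 7, limma-voom 0 (7 higher at an unadjusted p under 0.05, as were 6.41% of all genes) and the replicate block 0 (7 higher and 1 lower at an unadjusted p under 0.05, against 6.53% and 4.89% of all genes); leaving out 1 library gave 0 to 7. Same-numbered mice are different animals and their deviations correlated at 0.06, -0.45, 0.32 and 0.16, so the numbers do not pair them. In DESeq2, without 1 library at a time, 7 or 8 of the 10 genes passed. By CPM, 7 or 8 did not overlap between genotypes in the same settings. With all libraries, 2.84% of all genes were called higher by DESeq2 and 5.41% were higher without overlap. Those shares were not computed without a library, so these counts have no background of their own. None of the 10 log2 fold changes per library changed sign in any fit.

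Relative to macrophage markers, 3 of the 10 genes were called; with the 8 resident markers as reference 5 were (Trem2, Itgax, Cd72, Gpnmb and Lgals3, against 0.352% of all genes called higher), with Csf1r alone 4 (Trem2, Itgax, Gpnmb and Lgals3, against 0.292%), and leaving out 1 library gave 0 to 8. With the resident markers, Fabp5 and Mmp27 turned to log2 fold changes of 0.38 and 0.24, with neither called, and Spp1 was no longer called (log2 fold change 4.11, adjusted p = 0.106), nor with Csf1r alone (3.61, adjusted p = 0.139). The number of genes not overlapping per marker count was 6 or 7 under the other references and without each library, alternatives chosen after seeing the data. The causes were not tested. Mmp27, at 16 to 92 pairs per library, had the least depth of the 10 genes.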
